A study of Homo sapiens with 6 samples.

Results

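Expression of 39 genes whose products build the centromere, the kinetochore and the spindle checkpoint was measured by RNA sequencing in MDA-MB-231 cells without irradiation and 24 h after ionizing radiation. The genes were chosen by name from these complexes, and they are 39 of 58735 genes in the expression table. MDA-MB-231 is a human breast adenocarcinoma line of mesenchymal, triple-negative type. The cells carried a non-targeting short hairpin RNA (shSCR) according to the study's methods, the library names begin with SCR, and the labels give the genotype as WT. There were 3 libraries of cells given 0 Gy and 3 of cells given 10 Gy from a 137Cs source, and nothing else was stated to differ between them. Nothing states that the 3 libraries of a dose came from separate cultures, so the p-values measure only the spread between these libraries.

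Values are FPKM, fragment counts scaled to the exon length of the gene and to the depth of the library. A change is the difference in mean log2(FPKM + 1) between 10 Gy and 0 Gy, a scale that understates the change of weakly expressed genes. It was tested with limma over 12128 genes, those averaging 1 FPKM or more over the 6 libraries, and a gene was called at a Benjamini-Hochberg adjusted p under 0.05. All 39 genes passed that filter. The FPKM corresponded to 15643641 to 28861781 reads on genes per library, and the members drew between 1324 (CENPH) and 62234 (CENPF) reads over the 6 libraries. Over tested genes, the lowest correlation between libraries within a dose was 0.992, and the highest across doses was 0.989. The 5 markers of the line (VIM, CD44, ANXA1, AXL and CAV1) averaged 78.6 FPKM or more at 0 Gy. All 5 were called lower at 10 Gy, with changes from -0.49 (AXL) to -0.11 (CD44), where 23.7% of all tested genes were. In contrast, CDH1 stayed at or below 0.479 FPKM, ESR1 at or below 0.0169 FPKM, and PGR was listed at 0 in every library. The other 2 genes listed as low in the line were not near 0: EPCAM averaged 1.44 FPKM and ERBB2 7.08 FPKM at 0 Gy, the latter close to the median of 7.11 FPKM over all tested genes. Of 4 markers of other cell types, PTPRC and ALB stayed at or below 0.0193 FPKM, with PTPRC listed at 0 in 3 libraries, while PECAM1 and COL1A1 rose. Their summed level was 4.22 to 4.35 FPKM at 0 Gy and 6.03 to 6.24 FPKM at 10 Gy, and its part in the results was not tested.

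The centromere is marked by nucleosomes that hold the histone H3 variant CENP-A. On these sits the constitutive centromere-associated network (CCAN), a set of inner kinetochore proteins present through the cell cycle. In mitosis the CCAN recruits the outer kinetochore (KNL1, the MIS12 complex and the NDC80 complex), which grips spindle microtubules with the help of the Ska complex. Kinetochores that lack microtubules switch on the spindle checkpoint, which holds back anaphase, and the chromosomal passenger complex with the kinase Aurora B releases faulty attachments. Many of these genes are transcribed mainly in late S, G2 and M phase. Promoters of such genes often hold CCAAT boxes, bound by NF-Y, and the cell cycle genes homology region (TTTGAA or TTTAAA), bound by the MuvB complex.

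The genes moved in both directions, with small changes. After 10 Gy, 16 of the 39 genes were lower and 10 were higher, while 13 were not called. The lower calls made up 41.0% of the members and 23.7% of all tested genes, and the higher calls 25.6% of the members and 11.9% of all tested genes. The fall was steepest for SPC24, SKA1, CENPK and DSN1, and the rise was steepest for CENPF, SGO2, BUB1B and BIRC5. The median change over the members was -0.03, beside -0.04 over all tested genes, and the median size of the change regardless of sign was 0.22 for members and 0.13 for all tested genes. In a bulk sample, fewer cells in a cell cycle phase and less RNA per cell cannot be told apart.

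Few of the changes were large. Adding the requirement of a 1.3-fold change left SPC24 and SKA1 among the lower genes (2.95% of all tested genes) and CENPF and SGO2 among the higher ones (2.82% of all tested genes). For 17 members every 10 Gy library lay below every 0 Gy library (32.8% of all tested genes), for 14 every 10 Gy library lay above (19.1% of all tested genes), and for 8 the groups overlapped. The split between the directions depended on the scaling of the libraries. When each library was divided by its FPKM sum (TPM scaling), the median of all tested genes shifted up by 0.11, and 8 members were called lower and 18 higher in place of 16 and 10. Of all tested genes, 8.83% were then lower and 25.8% higher. Upper quartile scaling gave 11 lower and 15 higher, beside 11.9% and 21.1% of all tested genes, and median-of-ratios scaling 16 and 10. All 10 genes called higher were called in that direction under each of the 4 scalings tried, the deposited one included. So were 8 of the 16 called lower (CENPK, CENPM, CENPU, DSN1, SPC24, SPC25, SKA1 and AURKB). Each other scaling moved the median of all tested genes up, by 0.106 (TPM), 0.0753 (upper quartile) and 0.0049 (median of ratios). None moved it down, so these scalings could hardly remove a higher call and put mainly the lower calls at risk. Of the genes not called, TPM scaling called CENPA, CENPC, CENPH, MAD2L1, SGO1, SKA2, INCENP and CDCA8 higher. Upper quartile scaling called CENPA, CENPH, MAD2L1, SKA2 and CDCA8 higher.

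**Figure D1:**
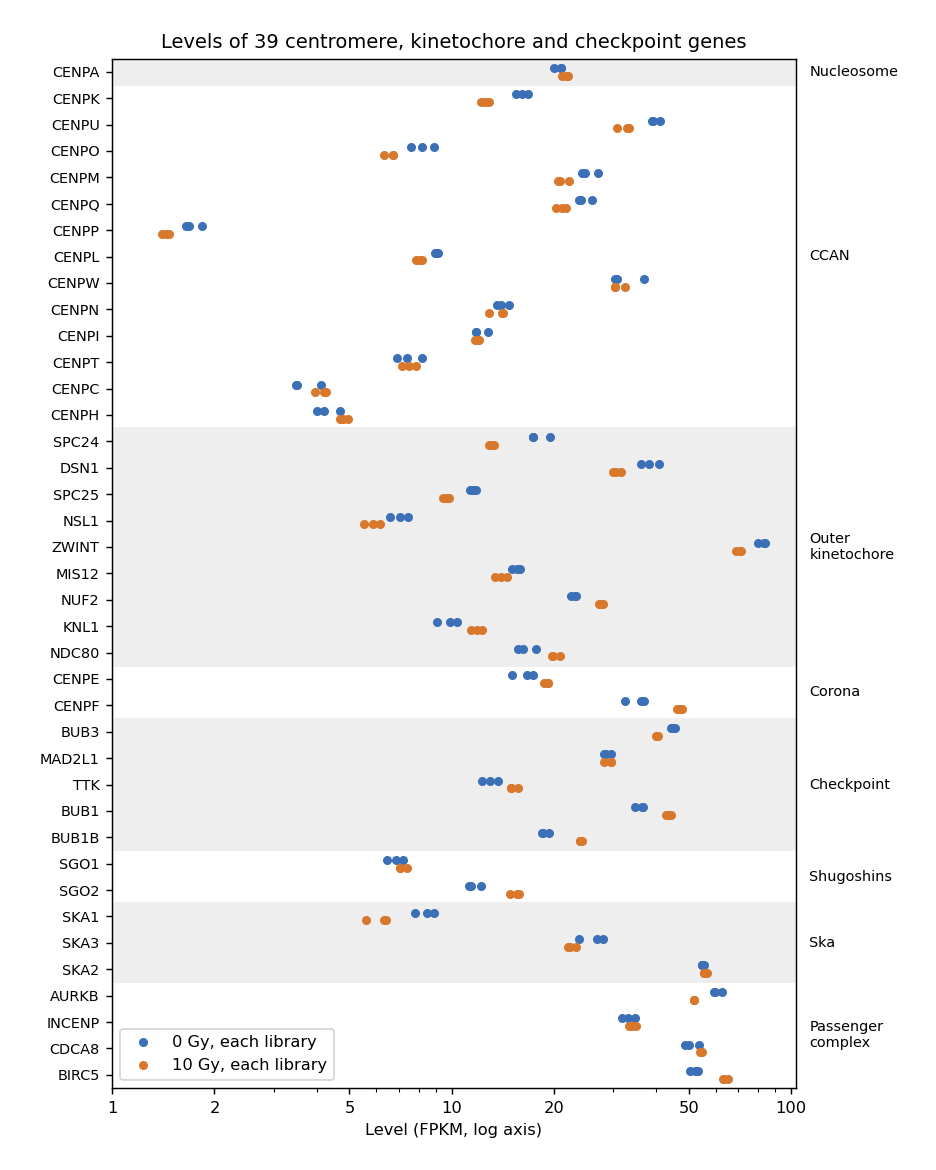
Level of each of the 39 genes in each of the 6 libraries (FPKM, logarithmic axis), grouped by complex, with 0 Gy libraries in blue and 10 Gy libraries in orange. The genes range from CENPP, with a mean of 1.72 FPKM at 0 Gy, to ZWINT, with 82.4 FPKM, and the distance between doses is small beside the range between genes.

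**Figure D2:**
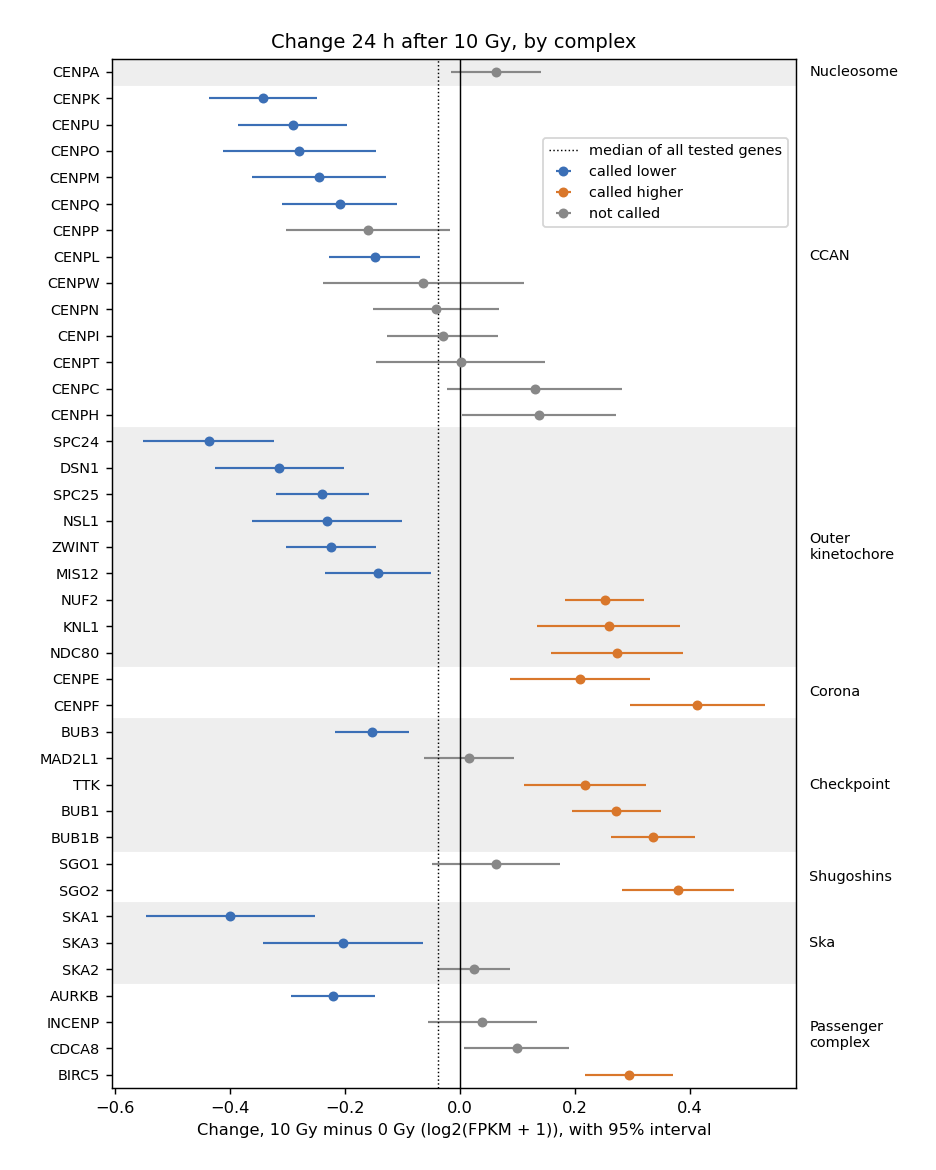
Change of each gene from 0 Gy to 10 Gy on the log2(FPKM + 1) scale (points) with the 95% interval from limma (lines), grouped by complex and coloured by call, and the median of all tested genes as a dotted line. The called members of the CCAN and the Ska complex lie to the left of zero. The corona members CENPE and CENPF lie to the right, and the outer kinetochore lies on both sides.

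CENPA, the histone variant that marks the centromere, was not called. It measured 21.0, 20.01 and 21.0 FPKM at 0 Gy and 21.7, 22.02 and 21.1 FPKM at 10 Gy. The irradiated libraries lay just above the controls without overlap, with a change of 0.06 (95% interval -0.02 to 0.14, adjusted p = 0.18). Under TPM scaling the change was 0.19 with an adjusted p of 0.00974, and over all alternatives its adjusted p ranged from 0.00974 to 0.40. Of its exon bases, 6.96% are shared with SLC35F6 on the same strand.

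In the CCAN, 6 of 13 members were lower and none was higher, with a median change of -0.15 over the 13. Of all tested genes, 23.7% were lower and 11.9% higher. Under TPM scaling 3 of the 13 were lower and 2 higher, where 8.83% and 25.8% of all tested genes were. Of the 6, 3 belong to its O-P-Q-U group and 2 to its H-I-K-M group. CENPK, a subunit of the CENP-H-I-K-M group, had the steepest fall. It measured 16.8, 16.1 and 15.5 FPKM at 0 Gy and 12.2, 12.9 and 12.5 FPKM at 10 Gy. All 3 irradiated libraries were below all controls, and the change was -0.34 (SE 0.0402, adjusted p = 0.00145). CENPM, of the same group, fell from 25.3 ± 1.48 to 21.2 ± 0.871 FPKM (mean ± SD over 3 libraries per dose, here and later, with a change of -0.24 and an adjusted p of 0.00929). Their partner CENPI was not called, with 11.8, 12.8 and 11.8 FPKM against 12.01, 11.9 and 11.7 FPKM and overlapping groups (change -0.03, 95% interval -0.13 to 0.07). CENPH, the remaining subunit, measured 4.68, 4.001 and 4.20 FPKM against 4.96, 4.69 and 4.80 FPKM. Its irradiated libraries were the higher ones, narrowly without overlap, and it did not pass the test (change 0.14, adjusted p = 0.10). CENPH was called higher under TPM (adjusted p = 0.0138) and upper quartile scaling (0.0229), and without 0 Gy replicate 1 (0.0265).

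CENPK lies at chr5:65517766-65563171 on the minus strand of GRCh38. Its promoter is shown because its calls held under every setting and it carries 3 CCAAT boxes and neither TTTGAA nor TTTAAA. The window runs from 250 bases before to 50 bases after the RefSeq start (GRCh38.p14, chr5:65563119-65563418, minus strand, written 5′ to 3′). Capitals in this and the later promoters mark CCAAT boxes, TTTGAA and TTTAAA on either strand. A CCAAT box on the opposite strand reads ATTGG here. Other members called lower under every setting differ from CENPK in these elements. SKA1, with a steeper fall (change -0.40), holds a TTTGAA and no CCAAT box.
CENPK: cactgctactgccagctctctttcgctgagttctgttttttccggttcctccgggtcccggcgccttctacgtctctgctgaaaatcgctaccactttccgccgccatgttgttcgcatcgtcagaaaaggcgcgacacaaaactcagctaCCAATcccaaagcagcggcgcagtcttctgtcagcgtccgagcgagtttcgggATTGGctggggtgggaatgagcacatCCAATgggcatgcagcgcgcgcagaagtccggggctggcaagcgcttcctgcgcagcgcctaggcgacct

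The CENP-O-P-Q-U group helps to place the kinase PLK1 at the kinetochore. Of its 4 genes among the members 3 were lower, where 23.7% of all tested genes were. Its remaining subunit, CENP-R (gene ITGB3BP), was among the further pathway genes. It was not called and its groups overlapped (change -0.04, adjusted p = 0.642). CENPU fell from 39.7 ± 1.25 to 32.3 ± 1.33 FPKM (change -0.29, SE 0.0405, adjusted p = 0.00249). CENPO fell from 8.22 ± 0.636 to 6.59 ± 0.225 FPKM (change -0.28, adjusted p = 0.00948), and CENPQ from 24.5 ± 1.17 to 21.1 ± 0.66 FPKM (change -0.21, adjusted p = 0.00963). Under TPM scaling CENPU stayed called, while the calls of CENPO (change -0.17, adjusted p = 0.0943) and CENPQ (change -0.09, adjusted p = 0.115) were lost. The ratio of CENPU to CENPQ within a library overlapped between doses, averaging 1.62 at 0 Gy and 1.53 at 10 Gy. CENPP, the weakest of the 39 genes, measured 1.65, 1.83 and 1.68 FPKM at 0 Gy and 1.40, 1.44 and 1.47 FPKM at 10 Gy. Its irradiated libraries were all below the controls, but it was not called (change -0.16, adjusted p = 0.0786). Over the alternatives its adjusted p ranged from 0.0145 to 0.352. The strand setting of the counting is not given in the sources used here, so reads of a gene on the opposite strand cannot be told apart where exons overlap. Such overlaps covered 42.7% of the exon bases of CENPP (with NOL8 as the most abundant partner), 31.4% of CENPO (PTRHD1), 22.8% of CENPN (CMC2), 19.6% of CENPT (NUTF2) and 11.7% of CENPU (PRIMPOL). Of these partners, CMC2 (change -0.36), PTRHD1 (-0.27), PRIMPOL (-0.18) and NOL8 (-0.17) were called lower and NUTF2 (-0.16, adjusted p = 0.062) was not. CENPO and CENPU were called lower like their partners, while CENPN and CENPP were not called although theirs were.

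Of the remaining CCAN genes, CENPL was called and the others were not. CENPL, which with CENPN reads the CENP-A nucleosome, fell from 9.03 ± 0.0883 to 8.05 ± 0.154 FPKM (change -0.15, adjusted p = 0.0141). That call was lost without 10 Gy replicate 1 or 2, with an adjusted p of up to 0.0567, and under TPM and upper quartile scaling, with 0.492 and 0.182. CENPN measured 14.0, 13.7 and 14.8 FPKM against 12.9, 14.0 and 14.1 FPKM, and the groups overlapped (change -0.04, 95% interval -0.15 to 0.07). CENPC, the scaffold that joins the CENP-A nucleosome to the MIS12 complex, measured 3.48, 4.12 and 3.50 FPKM against 4.27, 4.20 and 3.95 FPKM. One control library reached into the irradiated range, and the change was 0.13 (95% interval -0.02 to 0.28). CENPC was called higher under TPM scaling (adjusted p = 0.0411) but not upper quartile scaling (0.0553). It was also called higher with voom on reads recovered from the FPKM (0.0418) and without 0 Gy replicate 2 (0.0358). CENPT, the other link to the NDC80 complex, measured 8.19, 6.91 and 7.41 FPKM against 7.12, 7.87 and 7.50 FPKM (change 0.00, 95% interval -0.15 to 0.15). CENPW, the histone-fold partner of CENPT, measured 36.9, 30.3 and 30.7 FPKM against 30.4, 32.5 and 30.3 FPKM. Both overlapped between the doses, and for CENPW the first control library stood above the other 5 (change -0.06, 95% interval -0.24 to 0.11).

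In the outer kinetochore all 9 members were called, 6 lower and 3 higher, beside 23.7% and 11.9% of all tested genes. The subunits of single complexes parted. The NDC80 complex is a rod of 4 proteins: NDC80 and NUF2 form the end that binds microtubules, and SPC24 and SPC25 form the end that binds the inner kinetochore. NDC80 and NUF2 rose while SPC24 and SPC25 fell. NDC80 measured 17.7, 15.7 and 16.2 FPKM at 0 Gy and 19.9, 20.9 and 19.7 FPKM at 10 Gy. Every irradiated library was above every control (change 0.27, SE 0.049, adjusted p = 0.00601). NUF2 measured 22.5, 23.2 and 23.1 FPKM against 27.9, 27.5 and 27.2 FPKM, again without overlap (change 0.25, SE 0.0292, adjusted p = 0.00139). SPC24 had the steepest fall of the 39 genes. It measured 19.5, 17.4 and 17.4 FPKM against 13.1, 12.9 and 13.3 FPKM, so that all 3 irradiated libraries were far below the controls (change -0.44, SE 0.0483, adjusted p = 0.00117). SPC25 measured 11.8, 11.6 and 11.3 FPKM against 9.46, 9.64 and 9.86 FPKM, also without overlap (change -0.24, SE 0.0343, adjusted p = 0.00273). These 4 calls held under each of the 4 scalings and with each library left out in turn.

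Ratios of partner genes within a library do not depend on the scaling of the library. All pairs given were chosen after their values were seen and are given as a description. The ratio of NDC80 to SPC24 was 0.907, 0.902 and 0.930 in the controls and 1.52, 1.62 and 1.48 in the irradiated libraries, a 1.69-fold higher mean. At 0 Gy NDC80 was the less abundant of the pair per length in all 3 libraries, and at 10 Gy the more abundant in all 3. The ratio of NUF2 to SPC25 went from 1.98 ± 0.0734 to 2.85 ± 0.095, 1.44-fold higher. Within the microtubule-binding end, the ratio of NDC80 to NUF2 overlapped between doses, with means of 0.721 and 0.733.

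**Figure D3:**
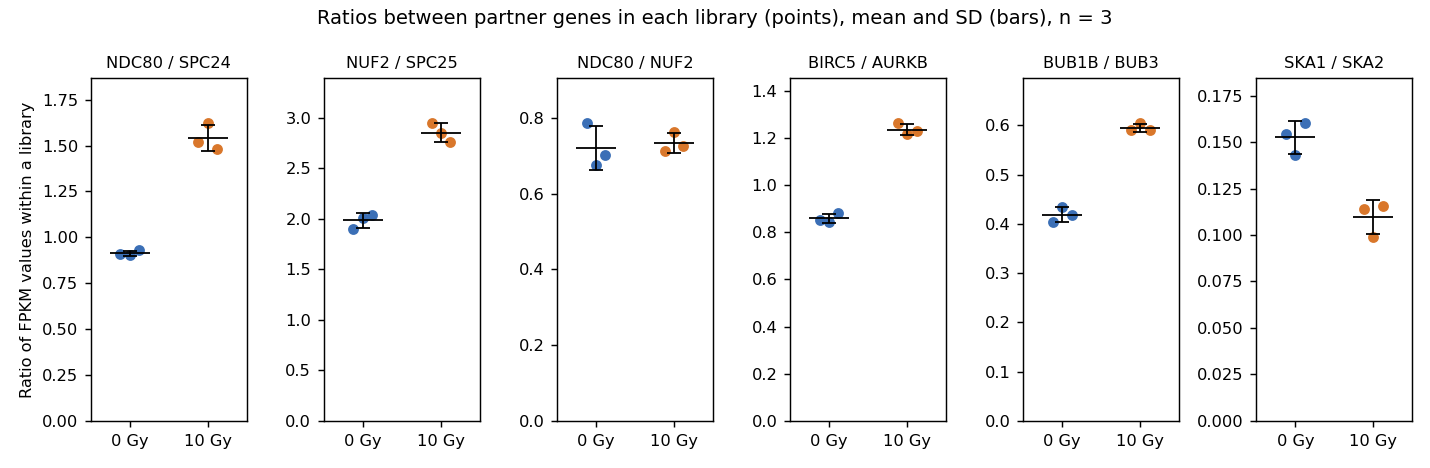
Ratio of the FPKM of partner genes within each library, as points, with the mean of each dose as a horizontal bar and its SD (n = 3) as a vertical one, on an axis from 0 in each of the 6 panels. NDC80 to SPC24 went from a mean of 0.913 to 1.54 and BIRC5 to AURKB from 0.859 to 1.24, while NDC80 to NUF2 overlapped between the doses.

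The promoters of NDC80 and SPC24 are shown because these partners moved in opposite directions. NDC80 lies at chr18:2571511-2616635 on the plus strand and SPC24 at chr19:11131520-11155808 on the minus strand. The RefSeq windows are chr18:2571307-2571606 (plus) and chr19:11155733-11156032 (minus) of GRCh38.p14. The NDC80 window holds a TTTGAA element 3 bases before the start and no CCAAT box. The SPC24 window holds 3 CCAAT boxes and no TTTGAA or TTTAAA. The pair does not stand for all members: SPC25, also lower, holds CCAAT boxes and a TTTGAA 3 bases before its start. SKA1, also lower, holds a TTTGAA 34 bases after its start and no CCAAT box. TTTGAA or TTTAAA was present in 5 of 13 members called lower and 6 of 7 called higher.
NDC80: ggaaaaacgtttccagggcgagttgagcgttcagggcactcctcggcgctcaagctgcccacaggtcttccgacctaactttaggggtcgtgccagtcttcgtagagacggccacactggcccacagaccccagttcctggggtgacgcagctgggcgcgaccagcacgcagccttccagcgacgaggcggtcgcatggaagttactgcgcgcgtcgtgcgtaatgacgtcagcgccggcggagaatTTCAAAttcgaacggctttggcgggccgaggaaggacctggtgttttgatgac
SPC24: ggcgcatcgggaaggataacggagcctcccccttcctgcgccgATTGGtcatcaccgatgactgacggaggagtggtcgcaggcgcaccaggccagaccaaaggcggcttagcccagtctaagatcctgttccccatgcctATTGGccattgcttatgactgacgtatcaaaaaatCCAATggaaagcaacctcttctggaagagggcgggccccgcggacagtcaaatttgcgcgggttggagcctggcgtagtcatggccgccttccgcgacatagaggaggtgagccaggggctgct

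The MIS12 complex, which bridges the inner and outer kinetochore, had each of its 3 listed subunits lower, where 23.7% of all tested genes were. DSN1, the subunit through which Aurora B controls binding to CENP-C, fell most. It measured 40.7, 36.1 and 38.2 FPKM at 0 Gy and 29.8, 30.5 and 31.5 FPKM at 10 Gy, with no overlap (change -0.31, SE 0.0478, adjusted p = 0.00335). NSL1 fell from 7.04 ± 0.43 to 5.84 ± 0.322 FPKM (change -0.23, adjusted p = 0.0172) and MIS12 from 15.5 ± 0.40 to 14.0 ± 0.557 FPKM (change -0.14, adjusted p = 0.0283). The call of NSL1 was lost without 10 Gy replicate 1 or 2 (adjusted p up to 0.0615). The call of MIS12 was lost without 0 Gy replicate 1 or 3 or 10 Gy replicate 1 or 2 (adjusted p up to 0.0986), and both were lost under TPM and upper quartile scaling. Exons of DERL2 on the opposite strand cover 9.53% of the exon bases of MIS12. PMF1, the fourth subunit, was among the further pathway genes and was not called (change -0.21, adjusted p = 0.0645).

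KNL1 and ZWINT also moved apart. KNL1, the scaffold on which the BUB proteins gather, measured 9.04, 9.91 and 10.3 FPKM at 0 Gy and 11.9, 12.3 and 11.4 FPKM at 10 Gy. All irradiated libraries were higher (change 0.26, SE 0.0528, adjusted p = 0.0096). ZWINT, which binds KNL1, was the most abundant of the 39 genes, with 83.1, 84.2 and 79.8 FPKM at 0 Gy and 70.8, 71.5 and 68.8 FPKM at 10 Gy. All irradiated libraries were lower (change -0.22, SE 0.0333, adjusted p = 0.00309), a call lost under TPM scaling (change -0.10, adjusted p = 0.0743). The ratio of KNL1 to ZWINT rose from 0.119 ± 0.0104 to 0.169 ± 0.00304 without overlap.

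The corona is the fibrous outermost layer of unattached kinetochores. Both of its genes among the members were higher, where 11.9% of all tested genes were. Further pathway genes of the corona did not rise. ZW10 (change -0.25, adjusted p = 0.0128) and SPDL1 (-0.15, adjusted p = 0.00847) were lower, and KNTC1 (-0.02) and ZWILCH (0.05) were not called. CENPF, a large protein that recruits dynein regulators, measured 32.4, 36.9 and 36.2 FPKM at 0 Gy and 47.1, 47.9 and 46.2 FPKM at 10 Gy. The irradiated libraries lay well above the controls, and the change was the highest of the 39 (0.41, SE 0.0499, adjusted p = 0.00156). CENPE, the kinesin that moves chromosomes to the spindle equator, measured 15.05, 17.4 and 16.7 FPKM against 18.7, 19.2 and 19.2 FPKM, also without overlap (change 0.21, SE 0.0517, adjusted p = 0.0192). Its call was lost when any single 10 Gy library was left out, with an adjusted p of up to 0.0667. CENPF lies at chr1:214603195-214664588 on the plus strand. Its promoter window (GRCh38.p14, chr1:214602945-214603244, plus strand) is shown as that of the gene with the highest change, and it holds 4 CCAAT boxes, a TTTAAA 115 bases before the start and a TTTGAA 40 bases after it.
CENPF: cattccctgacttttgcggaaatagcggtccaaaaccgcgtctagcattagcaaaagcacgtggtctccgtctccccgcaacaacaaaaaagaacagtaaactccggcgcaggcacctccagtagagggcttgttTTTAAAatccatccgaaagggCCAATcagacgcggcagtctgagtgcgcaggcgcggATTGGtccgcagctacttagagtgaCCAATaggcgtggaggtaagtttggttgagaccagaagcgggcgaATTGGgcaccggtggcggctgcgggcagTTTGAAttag

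Among the 5 checkpoint genes, 3 were higher and 1 was lower, beside 11.9% and 23.7% of all tested genes. BUB1B (BubR1), the subunit of the mitotic checkpoint complex that binds CDC20, measured 18.4, 19.4 and 18.6 FPKM at 0 Gy and 23.9, 24.2 and 23.9 FPKM at 10 Gy. The irradiated libraries were all higher (change 0.34, SE 0.0311, adjusted p = 0.0007), which was the lowest adjusted p of the 39. BUB1, the kinase that marks centromeric H2A, rose from 36.0 ± 1.04 to 43.7 ± 0.747 FPKM (change 0.27, adjusted p = 0.00153). TTK (MPS1), the kinase that starts checkpoint signalling at KNL1, rose from 12.98 ± 0.711 to 15.2 ± 0.419 FPKM (change 0.22, adjusted p = 0.0101). BUB3, the adaptor of both BUB1 and BubR1, went the other way, with 45.7, 44.6 and 44.5 FPKM against 40.4, 40.0 and 40.5 FPKM. Its irradiated libraries were all lower (change -0.15, SE 0.0274, adjusted p = 0.00593), but the call was lost under TPM scaling (change -0.03, adjusted p = 0.437) and upper quartile scaling (adjusted p = 0.0853). The ratio of BUB1B to BUB3 was 0.404, 0.434 and 0.417 in the controls and 0.590, 0.604 and 0.591 after 10 Gy, 1.42-fold higher. MAD2L1 (MAD2), the diffusible checkpoint inhibitor, measured 29.5, 28.5 and 28.2 FPKM against 29.5, 28.2 and 29.4 FPKM. The groups overlapped, with a change of 0.02 (95% interval -0.06 to 0.09). MAD2L1 was called higher under TPM scaling (change 0.14, adjusted p = 0.0107) and upper quartile scaling (change 0.10, adjusted p = 0.034).

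The shugoshins protect centromeric cohesin. SGO2 measured 11.3, 12.2 and 11.4 FPKM at 0 Gy and 14.9, 15.8 and 15.6 FPKM at 10 Gy. Every irradiated library was above the controls (change 0.38, SE 0.0419, adjusted p = 0.00117). SGO1 measured 6.43, 7.17 and 6.85 FPKM against 7.02, 7.41 and 7.05 FPKM, with overlap and a change of 0.06 (95% interval -0.05 to 0.17). The antisense gene SGO1-AS1 covers 17.7% of its exon bases. The ratio of SGO2 to SGO1 rose from 1.71 ± 0.0419 to 2.16 ± 0.0514 without overlap.

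The Ska complex stabilises kinetochore grip on microtubules, and 2 of its 3 genes were lower, where 23.7% of all tested genes were. SKA1, which carries the microtubule-binding domain, measured 8.47, 7.81 and 8.87 FPKM at 0 Gy and 6.33, 5.61 and 6.42 FPKM at 10 Gy. No irradiated library reached the controls (change -0.40, SE 0.0624, adjusted p = 0.00367). SKA3 measured 23.8, 28.0 and 26.8 FPKM against 22.1, 22.4 and 23.3 FPKM. The groups did not overlap (change -0.20, SE 0.0594, adjusted p = 0.0346). With single libraries left out, the call held without 0 Gy replicate 1 (adjusted p = 0.00398) and was lost without any other (adjusted p up to 0.105). The call was lost with no filter on low genes (adjusted p = 0.114), a filter at 0.1 FPKM (0.0638) and eBayes without trend (0.0509). It held with median-of-ratios scaling (0.0386), a replicate block (0.0337) and voom on recovered reads (0.00682). The call of SKA3 was also lost under TPM scaling (change -0.08, adjusted p = 0.376) and upper quartile scaling (change -0.11, adjusted p = 0.205). SKA2 was not called, with 54.8, 54.6 and 55.4 FPKM against 55.5, 56.6 and 55.5 FPKM. Its irradiated libraries lay marginally above the controls (change 0.02, 95% interval -0.04 to 0.09). SKA2 was called higher under TPM scaling (change 0.15, adjusted p = 0.0107) and upper quartile scaling (change 0.11, adjusted p = 0.0193). The ratio of SKA1 to SKA2 went from 0.153 ± 0.00878 to 0.110 ± 0.00918, without overlap.

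The chromosomal passenger complex likewise held genes of both directions. BIRC5 (survivin), the subunit that brings the complex to phosphorylated histone H3, measured 53.3, 50.5 and 52.2 FPKM at 0 Gy and 65.3, 63.2 and 63.5 FPKM at 10 Gy. All irradiated libraries were higher (change 0.29, SE 0.0324, adjusted p = 0.00117). AURKB, the catalytic subunit Aurora B, measured 62.5, 59.9 and 59.2 FPKM against 51.7, 52.0 and 51.7 FPKM. All irradiated libraries were lower (change -0.22, SE 0.0311, adjusted p = 0.00262). The ratio of BIRC5 to AURKB was 0.853, 0.844 and 0.881 in the controls and 1.26, 1.22 and 1.23 after 10 Gy, 1.44-fold higher, so that the more abundant of the pair changed in all 3 libraries. INCENP, the scaffold, measured 31.8, 34.8 and 33.1 FPKM against 33.3, 35.1 and 34.1 FPKM, with overlap (change 0.04, 95% interval -0.06 to 0.13). CDCA8 (borealin) measured 53.5, 48.8 and 50.04 FPKM against 54.4, 54.0 and 54.7 FPKM. Its irradiated libraries were narrowly the higher ones, and it was not called (change 0.10, adjusted p = 0.0854). CDCA8 was called higher under TPM (adjusted p = 0.00261) and upper quartile scaling (0.00549), and without 0 Gy replicate 1 (0.00981).

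Promoter windows were given for 32 of the 39 genes and for 27305 genes in all. The genes named without a window are BIRC5, BUB3, CENPH, CENPL, CENPM, KNL1 and TTK. CCAAT, searched on both strands, was present in 21 of the 32 genes (65.6%) and in 39.7% of all genes with a window. TTTGAA was present in 15 (46.9%, against 18.2%) and TTTAAA in 4 (12.5%, against 14.5%). Either of these last elements was present in 17 (53.1%, against 27.9%), namely in 6 of 7 genes called higher (BUB1B, CENPE, CENPF, NDC80, NUF2 and SGO2, but not BUB1), in 5 of 13 called lower and in 6 of 12 not called. CCAAT was present in 3 of 7 called higher, 8 of 13 called lower and 10 of 12 not called. The E2F-type words GGCGGGAA, TTTGGCGC and TTTCCCGC were found in 5, 0 and 2 of the 32 genes, against 3.79%, 0.795% and 1.98% of all, and TATAAA in 0, against 14% of all. In CDCA8 a TTTGAA overlaps a CCAAT, and in CENPA and MIS12 GGCGGGAA overlaps TTTCCCGC. These matches describe letters in a window and do not show binding.

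Of 22 further genes of the pathway, 7 were lower (31.8%, against 23.7% of all tested genes), 4 higher (18.2%, against 11.9%) and 11 not called. Under TPM scaling 2 were lower and 5 higher, where 8.83% and 25.8% of all tested genes were. The steepest falls were in the CENP-T-W-S-X group, of which CENPT and CENPW were not called. CENPX measured 61.8, 52.0 and 55.1 FPKM at 0 Gy and 37.0, 37.6 and 37.2 FPKM at 10 Gy, far below the controls (change -0.58, SE 0.0592, adjusted p = 0.000923). CENPS fell from 2.28 ± 0.0772 to 1.503 ± 0.128 FPKM (change -0.39, adjusted p = 0.00413), on 410 reads over the 6 libraries. Exon overlaps with other genes were not examined for CENPX, CENPS or the rest of the further genes. MIS18A, of the complex that licenses CENP-A loading, fell from 16.1 ± 1.51 to 12.9 ± 0.398 FPKM (change -0.29, adjusted p = 0.0128). HJURP, the CENP-A chaperone, changed by -0.18 and ZW10, of the dynein-recruiting complex at the corona, by -0.25, both called. The highest rises were in PLK1 (change 0.38, adjusted p = 0.000593), the mitotic kinase, in KIF2C (0.35, adjusted p = 0.000696), the microtubule depolymerase, and in CDC20 (0.31, adjusted p = 0.000963), the anaphase activator that the checkpoint inhibits. CDC20 measured 136, 130 and 131 FPKM against 163, 163 and 165 FPKM, without overlap.

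Cell cycle genes measured in the same libraries give the setting. CCNB1, the cyclin of mitotic entry, rose from 128 ± 4.04 to 171 ± 1.94 FPKM (change 0.42, adjusted p = 0.000593) and TOP2A rose (change 0.25). PCNA, the replication clamp, fell from 170 ± 8.75 to 121 ± 3.69 FPKM (change -0.48, adjusted p = 0.000743), and MCM2, of the replicative helicase, fell (change -0.34). CCNA2 (change -0.06, 95% interval -0.13 to 0.02) and MKI67 (change 0.02, 95% interval -0.18 to 0.21) were not called. CDKN1A, the CDK inhibitor p21, was lower at 10 Gy (change -0.30, adjusted p = 0.0102). The part of cell cycle distribution in the changes of the 39 genes was not tested.

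The genes called higher were longer than those called lower, with median exon lengths of 5300.5 and 2951.5 bases. Over the 39 genes, which share the same 6 libraries, the change correlated with log2 length at a Pearson r of 0.41 and a Spearman rho of 0.45. Over all 12128 tested genes the values were 0.013 and 0.18. Among the 7255 tested genes in the length range of the members called higher, 23.65% were lower and 12.6% higher. Among the 8257 tested genes in the length range of the members called lower, 27.47% were lower and 10.86% higher. The correlation of the change with mean level was 0.11 (Pearson) and 0.095 (Spearman) over the members and -0.29 and -0.32 over all tested genes. The part of length in the changes was not tested.

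**Figure D4:**
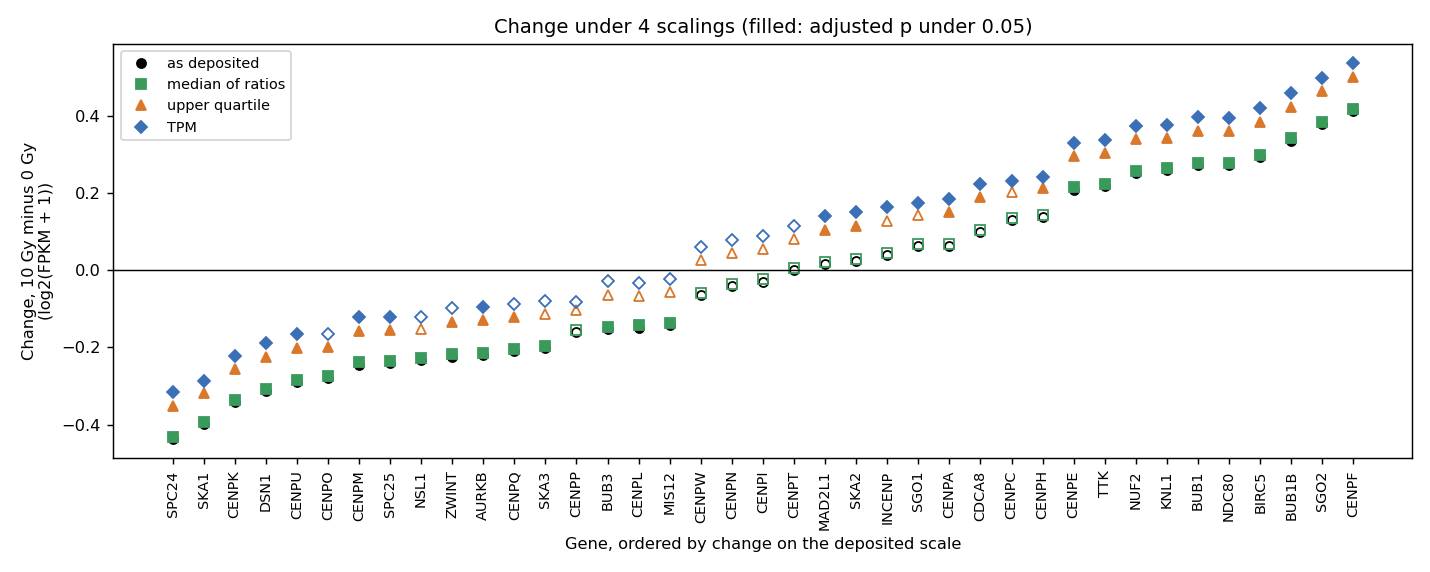
Change of each of the 39 genes under the 4 library scalings (log2(FPKM + 1) scale), ordered by the change on the deposited scale, with filled symbols where the gene was called. TPM and upper quartile scaling place each gene higher than the deposited scale does, and under TPM scaling 8 genes stay called lower and 18 are called higher.

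Of the 26 calls, 21 held with each library left out in turn, and the exceptions were CENPL, NSL1, MIS12, CENPE and SKA3. No called gene was called in the opposite direction under any alternative, and each of the 26 stayed on the same side of the median of all tested genes under all of them. A scaling moves all genes by nearly the same amount, and the replicate block left each change as it was. For those settings the side of the median could therefore hardly change.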

How the data were processed

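Polyadenylated RNA of 6 MDA-MB-231 libraries (3 at 0 Gy, 3 at 24 h after 10 Gy) was sequenced as paired ends on an Illumina NovaSeq by Novogene. The authors deposited FPKM per gene. The submitters' processing notes name HISAT2 and GRCh38; the counting program and its strand setting are not given in the sources used here. The FPKM could be turned back into whole reads (100% of values within 0.05 of a whole number), which gave the depths. Log2(FPKM + 1) was fitted with limma 3.58.1 in R 4.3.3 (eBayes with trend, two-sided, Benjamini-Hochberg over the 12128 genes that averaged 1 FPKM or more). The code was tested on simulated data. Other pseudocounts, filters, scalings, a replicate block, voom on the recovered reads and leaving out each library were tried. Intervals are 95% intervals from limma. With 3 libraries a dose an exact permutation test could not go below p = 0.1, so none was used.

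All 39 members could be named. Values in every library were set for CENPA, the members of lowest and highest change in each complex, the most abundant member and the members not called, and names for the 3 lowest and 3 highest changes among the further pathway genes and 7 cell cycle genes. Other values by library, and HJURP, ZW10, SPDL1, KNTC1, ZWILCH, ITGB3BP and PMF1, were added after their values were seen. The members and lists were chosen with earlier results of these data known. Exon overlaps were taken from GENCODE 29, whose member coordinates match the deposited table, and promoter sequences from RefSeq (GRCh38.p14, matched by symbol). Figures were drawn with matplotlib 3.10.9 in Python 3.11.15.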

Additional observations from a re-analysis of the deposited data

How the results depend on the processing

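Scaling was the choice that mattered most. The median change of the members, -0.03 as reported, was 0.0891 under TPM scaling, 0.0554 under upper quartile scaling and between -0.0497 and 0.00946 with each library left out. TPM scaling gave 8 members lower and 18 higher, and under it the median of all tested genes was 0.106 higher. The FPKM sums it divides by were 269611 to 278380 at 0 Gy and 246920 to 254918 at 10 Gy. Which scaling is nearer to the RNA content of the cells was not tested. CENPI, CENPN and CENPW, which were not called, turned to 0.0891, 0.078 and 0.061 under TPM scaling and to 0.0554, 0.044 and 0.0256 under upper quartile scaling, and CENPT to -0.0152 with voom. With a library left out, CENPI ranged from -0.0493 to 0.00863, CENPT from -0.0497 to 0.0586 and CENPW from -0.112 to 0.0254. Of the further pathway genes, 7 were lower as reported, 4 with no filter on low genes, 2 under TPM scaling and 3 under upper quartile scaling. Leaving out a library gave 12 to 15 members lower and 9 to 12 higher. Of all tested genes, 14.91% to 21.69% were then lower and 7.025% to 11.49% higher. Of 585 member values under alternatives, 519 kept their direction and side of the threshold, 35 lost and 19 gained a call, and 12 changed sign without being called. Over all tested genes, 2874 lower and 1443 higher calls became 1071 and 3127 under TPM scaling, 1444 and 2556 under upper quartile scaling, 1815 and 1097 of 31650 genes with no filter, 1830 and 875 without 10 Gy replicate 1, and 1808 and 852 without 10 Gy replicate 2. Libraries with the same number did not deviate together (correlations -0.0405, -0.0349 and -0.101). Taken from means of 3 libraries a dose, these values cannot decide whether the numbers mark pairs. The fit with a replicate block gave 16 members lower and 10 higher, the same genes. Over all tested genes it gave 2366 lower and 1137 higher. Depth limits CENPH, CENPP and CENPS most. The deposited values hold 1 time point and 1 dose.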
